A study of Mus musculus with 2 samples.

Results

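Mir199a-1, Mir199a-2, Mir199b, Mir214 and Mir140 were followed in the adrenal gland of young mice, as 5 genes chosen by name out of 2202 miRNA genes in the deposited tables. They were found by their GENCODE M21 symbols and compared by locus. Mir199a-2 and Mir214 lie in Dnm3os, Mir199b in Dnm1, Mir199a-1 in Dnm2 and Mir140 in Wwp2. Replicate 2 and replicate 1 were small RNA libraries of female B6CASTF1/J adrenal glands at 14 days of age, with no treatment and no second condition in the labels. B6CASTF1/J is the F1 hybrid of C57BL/6J and CAST/EiJ. The label of replicate 2 names a single numbered female, and that of replicate 1 names 3 females, so one library may stand for pooled animals. The labels call them biological replicates, yet both carry 1 donor identifier, so the spread between them may be technical in part. The ratios below set replicate 2 over replicate 1 and compare these 2 libraries, not conditions.

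MicroRNAs are cut from hairpin precursors, and bases 2 to 8 of the mature strand, the seed, pair with target messenger RNAs. Dnm3os is a long noncoding RNA transcribed from the strand opposite the dynamin gene Dnm3. It is the precursor of miR-199a and miR-214, is induced by the transcription factor Twist1 in mesenchyme, and is needed for normal skeletal growth in mice. Mir199b and Mir199a-1 lie antisense within the dynamin genes Dnm1 and Dnm2. Mir140 shares its locus with the ubiquitin ligase gene Wwp2 and is best known from chondrocytes, where Sox9 drives both. In the adrenal gland, mesenchymal cells form the capsule and the stroma around the steroid-producing cells.

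The mature sequences are shown because they set which of the 5 genes a read can be counted on. They are given 5′ to 3′ from RefSeq (build GRCm38.p6), with the seed in capitals. All 5 hairpins matched RefSeq entries, and these entries list 8 mature arms with 5 distinct sequences. The entries used here lack miR-199b-5p and miR-140-5p, so neither entered the seed search, and Mir140 was classed by its 3p arm alone.
miR-199a-5p (Mir199a-1 and Mir199a-2): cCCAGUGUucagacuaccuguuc
miR-199a-3p (Mir199a-1 and Mir199a-2): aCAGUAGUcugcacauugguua
miR-199b-3p (Mir199b): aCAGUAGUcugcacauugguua
miR-214-5p (Mir214): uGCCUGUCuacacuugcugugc
miR-214-3p (Mir214): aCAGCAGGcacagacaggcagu
miR-140-3p (Mir140): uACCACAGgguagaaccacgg

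The sequence of miR-199a-5p was found in 2 of the 2202 annotated hairpins, those of Mir199a-1 and Mir199a-2. The 3p arm was identical in 3 hairpins, those of Mir199a-1, Mir199a-2 and Mir199b. Both arms of Mir214 and the listed arm of Mir140 were each found in 1 hairpin. The listed seeds of Mir214 and Mir140 recurred in RefSeq at miR-761 (seed CAGCAGG) and miR-497b (seed ACCACAG). Their genes Mir761 and Mir497b had 0 counts in both libraries, which allows up to 0.596 CPM (counts per 1e6 miRNA counts) in replicate 2 and 0.790 CPM in replicate 1. Among the arms listed in RefSeq, none outside the 3 Mir199 genes carried the seed CCAGUGU or CAGUAGU. RefSeq arms were available for 1018 of the 2202 genes. The seeds of the 1184 genes with no entry were not searched. Those genes held 32.9951% of miRNA counts in replicate 2 and 14.9708% in replicate 1.

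The Mir199 hairpins are printed to show how far the identity runs past the mature arms, with the RefSeq arms in capitals and miR-199b-5p not marked.
Mir199a-2: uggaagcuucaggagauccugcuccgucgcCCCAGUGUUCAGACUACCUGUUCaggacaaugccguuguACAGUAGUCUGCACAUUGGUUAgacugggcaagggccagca
Mir199a-1: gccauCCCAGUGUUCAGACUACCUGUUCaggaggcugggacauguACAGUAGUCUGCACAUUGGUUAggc
Mir199b: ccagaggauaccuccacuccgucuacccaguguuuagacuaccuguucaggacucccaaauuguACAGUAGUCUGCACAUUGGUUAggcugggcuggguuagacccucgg

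Around miR-199a-5p, Mir199a-1 and Mir199a-2 shared a run of 27 bases, with 0 bases of identity before the arm and 4 after it. Around the 3p arm, the shared run was 26 bases between these genes. It was 27 bases between Mir199b and Mir199a-2, and 28 bases between Mir199b and Mir199a-1, where it reached the end of the annotated Mir199a-1 hairpin. Among the annotated hairpins, a read with the ends of the RefSeq arm therefore has 2 equal matches for miR-199a-5p and 3 for the 3p arm. On the 5p side of Mir199b, the aligned stretch differed from miR-199a-5p at 1 base, C10U, counted from 1 at the 5′ end of miR-199a-5p. The stretch is shown with the differing base in capitals, and it was found in 1 hairpin.
Mir199b stretch: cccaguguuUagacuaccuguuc

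On mouse build mm10, the hairpin of Mir214 (ENSMUSG00000065516.1) spans chr1:162223368-162223477, plus strand, within an exon of Dnm3os and antisense to an intron of Dnm3. That of Mir199a-2 (ENSMUSG00000070126.1) spans chr1:162217814-162217923 on the same strand, also in an exon of Dnm3os, with 5444 bases between the hairpins. Mir199b (ENSMUSG00000092807.1) spans chr2:32318460-32318569, plus strand, antisense to an intron of Dnm1. Mir199a-1 (ENSMUSG00000065547.1) spans chr9:21496495-21496564, minus strand, antisense to an intron of Dnm2. Mir140 (ENSMUSG00000065439.1) spans chr8:107551244-107551313, plus strand, where it overlaps an annotated exon of Wwp2 transcribed in the same direction. No other annotated miRNA gene overlapped a member on either strand. Opposite-strand counts were 1 in each library at Mir214 and at Mir199a-2, and 0 at the other 3 members.

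The libraries held 5034257 miRNA counts in replicate 2 and 3797107 in replicate 1. A further 2795730 reads in replicate 2 and 3002371 in replicate 1 mapped to several places and were given to no gene. The 3 Mir199 genes together had 164 counts in replicate 2 and 198 in replicate 1. Their values are therefore counts of reads that could be placed at 1 gene, and the amount of miR-199a or miR-199-3p in the gland was not measured here. Intervals and the limit of 3 counts for a count of 0 cover counting error only, since they were computed from the counts alone. The counts were of reads, with no molecular identifiers used here. The miRNA tables hold no messenger RNA, so the tissue label could not be checked against steroid enzyme genes. In this bulk tissue, fewer cells of a type and less RNA per cell cannot be told apart.

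Mir214 and Mir140 were the abundant members, and the 3 Mir199 genes stood far below them. Mir214, whose miRNA represses Ezh2 in muscle cells, had 11240 counts in replicate 2 and 5372 in replicate 1. These were 2233 CPM in replicate 2, rank 46 among all miRNA genes, and 1415 CPM in replicate 1, rank 69. Mir140 had 4071 counts (809 CPM, rank 80) in replicate 2 and 9446 counts (2488 CPM, rank 49) in replicate 1. Mir214 was thus the higher of the pair in replicate 2, and Mir140 in replicate 1. On the mean, Mir214 stood at 1824 ± 578 CPM and Mir140 at 1648 ± 1187 CPM (SD, n = 2), and their values overlap. Per 100 bases of hairpin, Mir214 had 10218 counts and Mir140 had 5816 counts in replicate 2, and Mir214 had 4884 and Mir140 had 13494 in replicate 1, so the order within each library was the same on that scale.

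Mir199b had 135 counts (26.8 CPM) in replicate 2 and 122 counts (32.1 CPM) in replicate 1, a mean of 29.5 ± 3.76 CPM (SD, n = 2). Its values were the closest of the 4 members with at least 10 counts in each library. Mir199a-2 had 29 counts (5.76 CPM) in replicate 2 and 73 counts (19.2 CPM) in replicate 1, a mean of 12.5 ± 9.52 CPM. Mir199b was above Mir199a-2 in both libraries, and their ranges did not overlap. Mir199a-1 had 0 counts in replicate 2, which allows up to 0.596 CPM, and 3 counts in replicate 1, or 0.790 CPM. All listed arms of Mir199a-2, Mir199a-1 and Mir199b are identical to those of another gene, so their counts are uncertain.

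**Figure D1:**
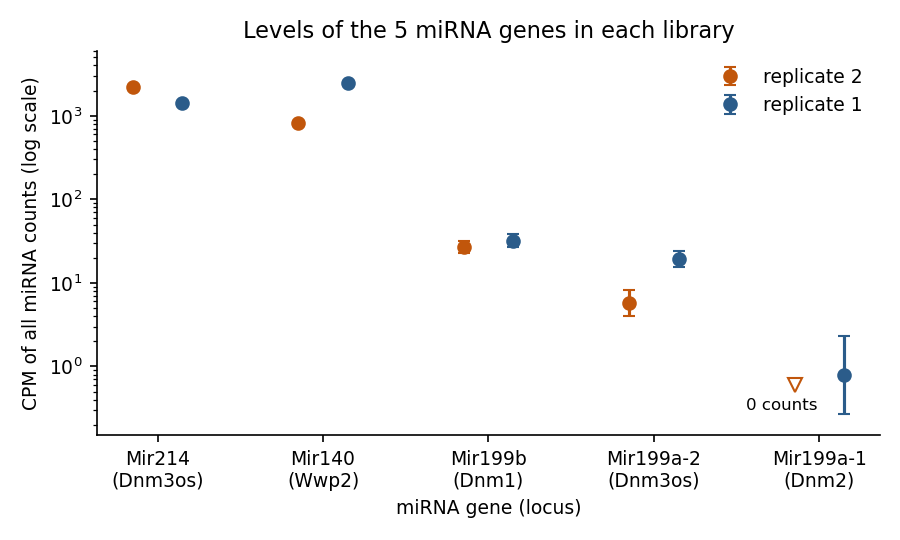
CPM of each member on a log scale, with replicate 2 left of replicate 1 and Wilson 95% intervals as bars (counting error only). The open triangle marks the limit of 0.596 CPM that 0 counts allow for Mir199a-1 in replicate 2; Mir214 and Mir140 lie between 809 and 2488 CPM and change order between the libraries.

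By locus, the Dnm3os pair took 0.224% of the miRNA total in replicate 2 (0.220 to 0.228, a Wilson 95% interval) and 0.143% in replicate 1 (0.140 to 0.147). Nearly all of this was Mir214. The Wwp2 locus took 0.0809% in replicate 2 (0.0784 to 0.0834) and 0.249% in replicate 1 (0.244 to 0.254). The Dnm1 locus took 0.00268% in replicate 2 (0.00227 to 0.00317) and 0.00321% in replicate 1 (0.00269 to 0.00384). The Dnm2 locus took 0% in replicate 2 (0 to 7.63e-05) and 7.90e-05% in replicate 1 (2.69e-05 to 0.000232). For 0 counts this Wilson bound lies above the limit of 3 counts used for CPM, since the methods differ. Together the 5 genes held 0.307% of counts in replicate 2 (0.303 to 0.312) and 0.395% in replicate 1 (0.389 to 0.402). The Dnm3os pair made up 72.8% of the members' counts in replicate 2 and 36.3% in replicate 1, while Mir140 made up 26.3% in replicate 2 and 62.9% in replicate 1.

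Ratios between members within a library do not depend on library size. The Dnm3os pair had 2.77 times the counts of Mir140 in replicate 2 (log2 ratio 1.47, exact Clopper-Pearson 95% interval 1.42 to 1.52) and 0.576 times in replicate 1 (-0.79, -0.84 to -0.75). The mean log2 ratio was 0.34 ± 1.60 (SD, n = 2), so the libraries gave opposite orders of these loci. Per base of hairpin the mean turned to -0.32, with the order within each library kept. Against the Dnm1 locus, the Dnm3os pair had 83.5 times the counts in replicate 2 (log2 ratio 6.38, 6.14 to 6.64) and 44.6 times in replicate 1 (5.48, 5.22 to 5.75). The Dnm1 locus is Mir199b, whose listed arm is identical in Mir199a-1 and Mir199a-2. The part that unplaced reads of this arm had in the ratio was not tested. With 2 libraries the smallest two-sided exact p for a paired difference is 0.5, so none of these orders could be tested across replicates.

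Within Dnm3os, Mir214 had 388 times the counts of Mir199a-2 in replicate 2 (log2 ratio 8.60, 8.08 to 9.18) and 73.6 times in replicate 1 (6.20, 5.87 to 6.56). The ratio differed 5.27-fold between the libraries, and its intervals did not overlap. Mir199b over Mir199a-2 gave 4.66 in replicate 2 (log2 ratio 2.22, 1.63 to 2.85) and 1.67 in replicate 1 (0.74, 0.31 to 1.18). Mir140 over Mir199b gave 30.2 in replicate 2 and 77.4 in replicate 1. The part that unplaced reads of Mir199a-2 and Mir199b had in these ratios was not tested.

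**Figure D2:**
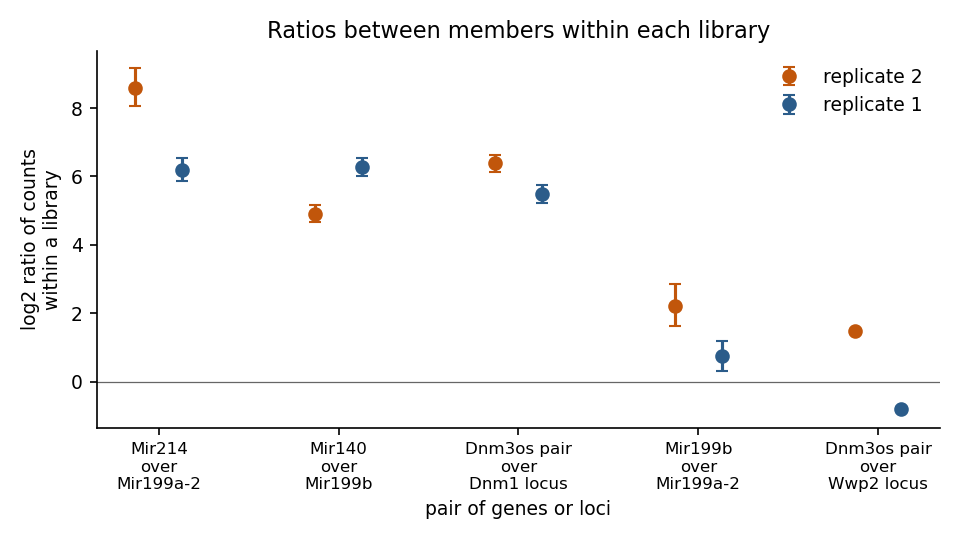
Log2 ratio of counts between members or loci in each library, replicate 2 left of replicate 1, with exact 95% counting intervals as bars. In all 5 pairs shown the intervals of the 2 libraries are apart, and the Dnm3os pair lies above the Wwp2 locus at 1.47 in replicate 2 and below it at -0.79 in replicate 1.

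Between the libraries, Mir214 was 2.13-fold higher in replicate 2, while Mir140 was 2.28-fold lower and Mir199a-2 was 2.45-fold lower. Levels were scaled with TMM factors, and the 2 counts of a gene were compared by a two-sided exact binomial test. P-values were adjusted by Benjamini-Hochberg over the 358 genes with at least 10 counts in each library. Calls needed an adjusted p below 0.05 together with a log2 ratio of 1 or more in size. Of the 4 members tested, 3 were called, 1 higher and 2 lower, against 17.9% of all 358 genes called. By direction, 9.22% of all tested genes were called higher and 8.66% lower. The test measures departure from counting error and has no replicate check, so it says nothing of the spread between animals.

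The log2 ratio of Mir214 was 1.09, with a 95% interval for counting error of 1.04 to 1.14, and that of Mir140 was -1.19 (-1.24 to -1.14). The adjusted binomial p of both was too small for the computer's number format. Mir199a-2 had a log2 ratio of -1.29 (-1.98 to -0.67) with an adjusted binomial p of 3.35e-05. Mir199b had a log2 ratio of 0.17 (-0.20 to 0.53) with an adjusted binomial p of 0.427. As far as counting error goes, its interval leaves changes of any size between these bounds possible. Mir199a-1 was not tested. Over all tested genes the median log2 ratio was -0.06, and the median absolute log2 ratio was 0.46. With library totals in place of TMM, that median was -0.48, Mir214 stood at 0.66 and was no longer called, and the calls over all genes became 18 higher and 78 lower in place of 33 higher and 31 lower.

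In edgeR's exact test, with a biological coefficient of variation of 0.444 estimated from the same 2 libraries, 1.68% of the 358 genes passed and 0 of the 4 members did. Unadjusted p in that exact test was 0.247 for Mir214, 0.205 for Mir140, 0.198 for Mir199a-2 and 0.868 for Mir199b, so 0 members were under 0.05 before adjustment as well. That spread was estimated from the same difference between the libraries that is tested, so these p-values are no independent check of the members.

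**Figure D3:**
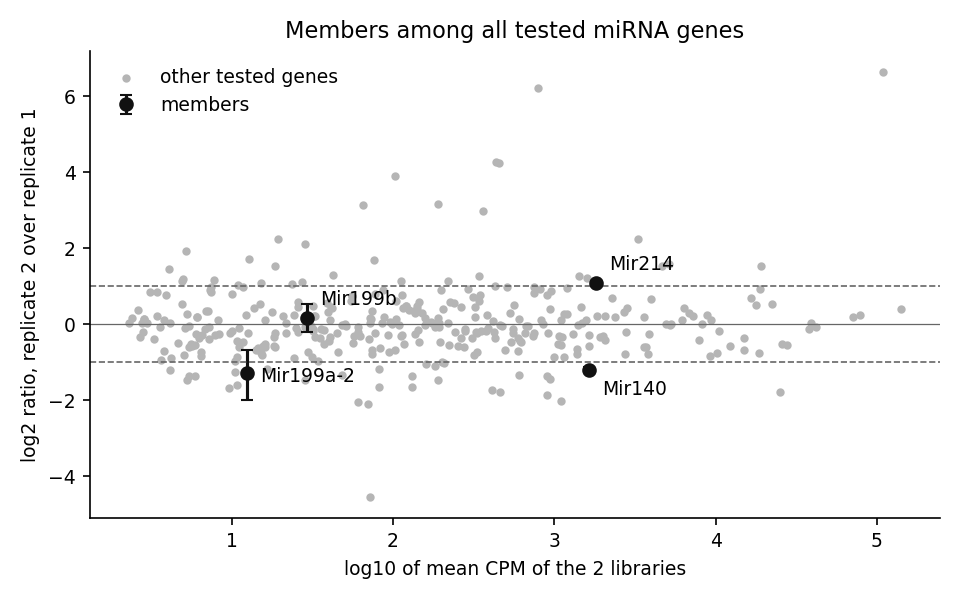
Log2 ratio of replicate 2 over replicate 1 (TMM scaled) against log10 of mean CPM for the 358 tested genes, members in black with exact 95% counting intervals. Dashed lines mark log2 ratios of 1 and -1; Mir214 at 1.09 lies above the upper line, Mir140 at -1.19 and Mir199a-2 at -1.29 below the lower one, and Mir199b at 0.17 between them.

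Mir199a-2 and Mir214 sit in 1 transcript, and their opposite calls were set beside those of other neighbours. In all, 114 pairs of adjacent tested genes lay on 1 strand within 10 kb. The absolute difference of log2 ratios within a pair had a median of 0.68 and a 90th percentile of 1.75. For Mir199a-2 and Mir214 it was 2.38, the largest of the 114, ahead of Mir410 and Mir3072 in the Dlk1-Dio3 region at 2.25 and of Mir92-2 and Mir20b at 2.19. Under TMM scaling, 1 pair had opposite calls, the Dnm3os pair. This comparison was chosen after the values had been seen, and Mir199a-2 rests on 29 counts in replicate 2 and 73 in replicate 1.

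**Figure D4:**
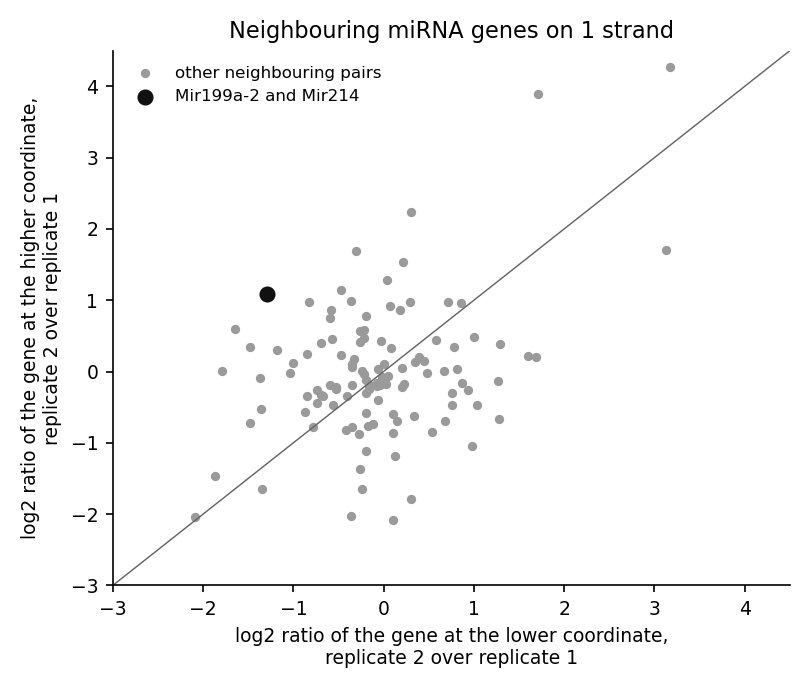
Log2 ratios, replicate 2 over replicate 1, of 114 pairs of adjacent tested miRNA genes on 1 strand, the gene at the lower coordinate on the x axis and its neighbour on the y axis, with the line of equality. The Dnm3os pair, in black, lies at -1.29 for Mir199a-2 and 1.09 for Mir214.

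The low values of the Mir199 genes were set beside those of other genes with shared arms. Of the 2202 genes, 1018 had a mature arm in the RefSeq table. Of 904 genes whose listed arms were each found in 1 hairpin, as for Mir214 and Mir140, 274 (30.3%) had at least 10 counts in each library. Of 53 genes with no such arm, which include all 3 Mir199 genes, 6 (11.3%) did. They were Mirlet7c-2, Mirlet7a-1, Mir199b, Mir3074-1, Mir199a-2 and Mir129-1, with Mirlet7c-2 highest at a mean of 747 CPM. Of 61 genes with arms of both kinds, 43 (70.5%) reached 10 counts. The genes with no arm of their own held 0.124% of miRNA counts in replicate 2 and 0.0980% in replicate 1. Mir199b stands among them because its 5p arm is not in the table, although the stretch printed above occurs in 1 hairpin. Classes also differ in which genes they hold, and the part of arm sharing in these levels was not tested.

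**Figure D5:**
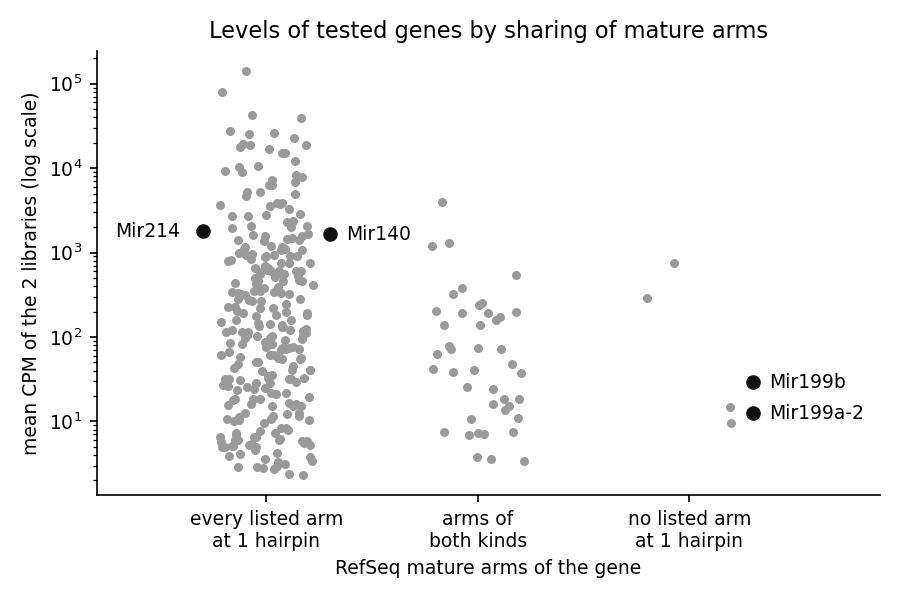
Mean CPM of the 2 libraries on a log scale for tested genes, grouped by RefSeq mature arms. An arm found in at most 1 annotated hairpin is marked as at 1 hairpin. Members are in black, and points are spread sideways for legibility. Mir214 at 1824 CPM and Mir140 at 1648 CPM lie in the class with every listed arm at 1 hairpin. Mir199b at 29.5 CPM and Mir199a-2 at 12.5 CPM lie among the 6 tested genes with no such arm.

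Genes with the most similar pair of values were found by the Euclidean distance of log2(CPM + 1) over the 2 libraries, which is few points for a likeness. The nearest to Mir214 was Mir423, at 2004 CPM in replicate 2 and 1171 CPM in replicate 1 (distance 0.31). Mir145a, a smooth muscle miRNA gene, followed at 1836 CPM in replicate 2 and 1024 CPM in replicate 1 (0.54). Mir28a stood at 2508 CPM in replicate 2 and 2076 CPM in replicate 1 (0.58). Of these, Mir423 and Mir145a were called higher in replicate 2, and Mir28a was not called. Nearest to Mir140 were Mir106b (0.36), Mir298 (0.42) and Mir20a (0.46), none of them called between the libraries. Mir199a-2 was nearest to Mir325, which was called lower, and to Mir511 and Mir450-1, which were not called. Mir199b was nearest to Mir3099, Mir331 and Mir664, none of them called.

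Other miRNA genes of stroma and smooth muscle had calls in both directions. Of 9 on the list, 8 were tested, with 1 called higher, 2 called lower and 5 not called in replicate 2, and a median log2 ratio of -0.29. Over all 358 tested genes, 9.22% were called higher and 8.66% lower, and edgeR's exact test gave the 3 called genes of the list an adjusted p of 1 each. The list summed to 53657 CPM in replicate 2 and 112663 CPM in replicate 1. Mir145a, which represses Klf4 in smooth muscle cells, was called higher at a log2 ratio of 1.27. Mir21a, raised in fibrosis of several organs, was called lower at -1.79 and Mir218-2, in an intron of Slit3, at -1.33. Mir143, the clustered partner of Mir145a, stood at -0.13 and was not called, though its adjusted binomial p was 7.89e-146. The largest members were Mir143, at 30816 CPM in replicate 2 and 45426 CPM in replicate 1, Mir21a, at 8901 CPM in replicate 2 and 41449 CPM in replicate 1, and Mir10b, at 9450 CPM in replicate 2 and 20516 CPM in replicate 1.

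Of the 4 Mir29 genes, which repress collagens and other matrix genes, 4 were tested and 0 were called, with a median log2 ratio of -0.05. Without the ratio minimum, 1 of them, Mir29c, had an adjusted binomial p under 0.05, at a log2 ratio of -0.20 and a p of 0.000455. Of the 2 genes of the cartilage list, Mir455, expressed with Mir140 in cartilage, stood at 0.46 and was not called. It had 1481 CPM in replicate 2 and 1449 CPM in replicate 1, with an adjusted binomial p of 2.24e-72. The other, Mir675, processed from H19, was called higher at 1.14 from 31 counts in replicate 2 and 14 in replicate 1. In edgeR's exact test the adjusted p of Mir675, as of Mir140, was 1.

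Markers of other tissues and cell types are given beside the 17.9% of all 358 tested genes that were called in the binomial test. All 3 liver genes were called higher, and the list summed to 215689 CPM in replicate 2 and 3002 CPM in replicate 1, led by Mir122. In edgeR's exact test Mir122 and Mir192 passed, and Mir194-2 had an adjusted p of 0.0869. Both tested genes of the striated muscle list of 7 were called higher, with Mir206 at 1552 CPM in replicate 2 and 27.9 CPM in replicate 1. Of these, Mir206 passed edgeR's exact test and Mir499 had an adjusted p of 1. Mir133a-1, Mir133a-2 and Mir1a-1 had 0 counts in both libraries. Of 5 epithelial genes, 3 were called higher and 1 lower, with sums of 350.0 CPM in replicate 2 and 113 CPM in replicate 1. In edgeR's exact test Mir200b had an adjusted p of 0.0120, Mir429 one of 0.0924, and Mir200a and Mir141 one of 1. Of 5 leukocyte genes, 1 was called lower, a share near that of all tested genes, and 4 were not called. The called gene was Mir142, at a log2 ratio of -1.44, and it did not pass edgeR's exact test. Mir150 at 0.61, Mir223 at 0.43 and Mir146 at 0.27 lay higher, with an adjusted binomial p below 0.05. Mir155 at 0.03 had an adjusted binomial p of 0.736. The list had a median log2 ratio of 0.27 and sums of 2196 CPM in replicate 2 and 3420.5 CPM in replicate 1. Of 3 erythroid genes, 1 was called lower, with sums of 560.0 CPM in replicate 2 and 2236 CPM in replicate 1. It was Mir451a, for which edgeR's exact test gave an adjusted p of 0.882. The 3 neuroendocrine genes were not called, with sums of 17814 CPM in replicate 2 and 34177 CPM in replicate 1. Endothelial Mir126a was not called, at 140629 CPM in replicate 2 and 142267 CPM in replicate 1, with a TMM-scaled log2 ratio of 0.41. Mir126a, Mir375 at -0.51 and Mir7-1 at -0.56 had an adjusted binomial p below 0.05 and missed a call only by the ratio minimum. The same held for Mir200c at -0.73 and Mir144 at -0.37, and for Mir150, Mir223 and Mir146 above. Mir7-2 had an adjusted binomial p of 0.418. The part of any of these cell types in the values of Mir214, Mir140 or Mir199a-2 was not tested. With Mir122 left out of the scaling, the log2 ratios were 1.09 for Mir214, -1.19 for Mir140, -1.29 for Mir199a-2 and 0.17 for Mir199b, as before. The CPM values and shares given here do count Mir122 in their total, 21.5% of it in replicate 2 and 0.290% in replicate 1. This lowers the CPM and shares of all other genes more in replicate 2. Without Mir122, the mean was 2131 CPM for Mir214 and 1762 CPM for Mir140. Mean shares were then 0.214% for the Dnm3os locus and 0.176% for the Wwp2 locus.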

How the data were processed

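Small RNA libraries of 2 adrenal samples were compared. The authors deposited whole-number counts per miRNA gene for each library, on mm10 with GENCODE M21 per the deposited text files. Aligner, counter and trimming: not given in the sources used here. Columns were unnamed and were read from their values. Column 3 was used, with the gene identifiers counted as column 1, and it is the strand holding most miRNA counts. The other count columns were read as the unstranded and the opposite-strand counts. The 4 leading summary lines (unmapped, multimapping, no feature, ambiguous) stayed out of library sizes. Replicate 2 had 11190481 reads, 45.0% of them miRNA counts and 25.0% mapping to several places. Replicate 1 had 10720796 reads, 35.4% of them miRNA counts and 28.0% mapping to several places.

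CPM was computed over all 2202 genes. TMM factors (0.862 in replicate 2, 1.16 in replicate 1) came from edgeR 4.0.16 in R 4.3.3, on the 358 genes with at least 10 counts in each library. Counts were compared with an exact binomial test (scipy 1.17.1), with a prior count of 0.5 in log2 ratios. edgeR's quasi-likelihood test needs residual degrees of freedom that 1 library on each side does not give. Alternatives were edgeR's exact test, DESeq2 1.42.0 size factors, library totals, leaving out Mir122, unstranded counts, other count minimums and prior counts, counts per base and single libraries. Shares have Wilson and within-library ratios exact Clopper-Pearson 95% intervals.

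Arms and hairpins came from RefSeq (GRCm38.p6). No genome was used, so arms were searched in annotated hairpins only. Named genes are the members, the 3 genes nearest each, genes overlapping a member or sharing a seed, and up to 3 genes per list by mean CPM. Genes named beyond this rule were chosen after their values were seen. Members and the 10 gene lists (stromal and smooth muscle, extracellular matrix, cartilage, endothelial, liver, striated muscle, epithelial, leukocyte, erythroid, neuroendocrine) were chosen with earlier results of these data known.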

Additional observations from a re-analysis of the deposited data

How the results depend on the processing

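Of 109 recomputed values, 94 were labelled as kept, 4 became weaker, 6 moved and 5 turned direction. Kept meant the same direction and side of the threshold, or a value within the spread of the replicates. A level or share from a single library always lies within that spread, so its label was fixed in advance. A ratio from a single library could only be kept or turn direction. Numbers of calls had a looser rule, under which 96 genes called with library totals, against 64, counted as kept. The 94 is therefore no measure of robustness. With a replicate left out, the log2 ratio of the Dnm3os pair to Mir140 ranged from -0.79 to 1.47 and that of Mir214 to Mir140 from -0.81 to 1.47. Per base of hairpin these mean ratios were -0.32 and -0.33, because the Mir140 hairpin is annotated with 70 bases and the other with 110. With library totals in place of TMM, the log2 ratio of Mir199b was -0.26 and that of Mir214 was 0.66, under the minimum of 1. In edgeR's exact test, Mir199a-2 at -1.31, Mir214 at 1.09 and Mir140 at -1.19 each had an adjusted p of 1, with 6 genes and 0 members called. A count minimum of 100 left 37 genes called and Mir199a-2 untested. Unstranded counts gave mean shares of 0.242% for the Dnm3os locus and 0.00389% for the Dnm1 locus, and a mean of 38.9 CPM for Mir199b, since their total is smaller. No paired analysis was possible because both libraries belong to 1 group. Depth limits Mir199a-2 and Mir199a-1 most, and reads that map to several places were not recovered.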
